A study of Mus musculus with 12 samples.

Results

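Complement components and regulators were described as 7 listed genes, C1s1, C4b, C3, Cfb, Serping1, C3ar1 and Cd55, across 4 sorted populations of neonatal mouse dermal fibroblasts. The genes were listed by name, with earlier results of these data known, so that counts of them are no independent test. They were matched to the array by symbol, and 6 of the 7 had a probe set of their own among 17097 genes. C3 was not analysed here. Female littermates, 3 in number and 2 days old, gave all samples, so that each population was measured on 3 arrays. Each animal contributed 1 array to every population. All populations were sorted as Pdgfra+ CD34+ cells lacking CD45, CD117, CD31 and EpCam, after the subdermis had been taken off and the dermis digested with collagenase. Papillary cells were CD26+/Dlk1-/Sca1-. Dlk1- Sca1+ cells (CD26-/Dlk1-/Sca1+) and Dlk1+ Sca1+ cells (CD26-/Dlk1+/Sca1+) are both called pre-adipogenic in the labels. Reticular cells were CD26-/Dlk1+/Sca1-. The strain was not given, and each array carries the RNA of 4500 sorted cells amplified over 21 cycles.

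Complement is a cascade of plasma proteases that marks particles for removal and can open membranes. The classical pathway starts when C1q binds a surface and activates the proteases C1r and C1s, and C1s then cuts C4 and C2. The alternative pathway runs on C3 and factor B and amplifies itself. C1 inhibitor (Serping1) stops C1r and C1s in the fluid phase, whereas the membrane protein CD55 (decay-accelerating factor) takes apart convertases on the cell that carries it. The liver makes most plasma complement, and fibroblasts of many tissues, skin included, are known to secrete several components.

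The stretch before the transcription start is shown for the genes on which the results turn and for which RefSeq promoter sequences (GRCm38.p6) were at hand. The promoter table matched C1s1, C3, C3ar1 and Cd55, 4 of the 7 genes. C1s1 lies between the C1r genes C1ra and C1rb, which moved with it, and Cd55 moved in another way. Each line holds the 250 bases before the start, 5′ to 3′ on the gene's strand. Capitals mark matches, on either strand, to a C/EBP motif (TTGCNNAA) or to a STAT motif of the GAS type (TTCNNNGAA). An ISRE motif, the letters GAAA followed after any 2 bases by GAAA again, was searched as well.
C1s1, chr6:124542360-124542609, minus strand: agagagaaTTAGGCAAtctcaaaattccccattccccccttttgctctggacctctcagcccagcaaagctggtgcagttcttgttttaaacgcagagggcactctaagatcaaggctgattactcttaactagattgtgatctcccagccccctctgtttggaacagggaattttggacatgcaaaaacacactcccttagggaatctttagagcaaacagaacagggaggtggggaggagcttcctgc
C1ra, chr6:124512371-124512620, plus strand: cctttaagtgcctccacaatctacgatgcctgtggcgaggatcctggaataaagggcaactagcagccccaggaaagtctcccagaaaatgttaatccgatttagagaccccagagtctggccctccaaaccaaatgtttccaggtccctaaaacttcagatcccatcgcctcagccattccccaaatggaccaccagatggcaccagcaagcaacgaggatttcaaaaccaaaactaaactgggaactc
C1rb, chr6:124570180-124570429, plus strand: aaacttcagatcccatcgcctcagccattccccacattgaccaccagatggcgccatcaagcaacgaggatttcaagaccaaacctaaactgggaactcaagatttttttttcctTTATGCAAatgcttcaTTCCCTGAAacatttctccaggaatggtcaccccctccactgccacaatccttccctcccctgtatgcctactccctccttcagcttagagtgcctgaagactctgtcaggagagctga
Cd55, chr1:130462745-130462994, minus strand: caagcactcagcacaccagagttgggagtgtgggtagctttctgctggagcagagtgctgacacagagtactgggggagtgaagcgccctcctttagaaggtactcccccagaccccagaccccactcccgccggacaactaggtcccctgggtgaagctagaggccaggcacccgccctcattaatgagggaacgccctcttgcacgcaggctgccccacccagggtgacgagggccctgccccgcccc

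The C1s1 window held 1 C/EBP match, TTAGGCAA, 242 bases before the start. A second annotated start of C1s1 had none of the 3 motifs in its own 250 bases. The C1rb window held the C/EBP match TTATGCAA 135 bases before the start and the GAS match TTCCCTGAA 119 bases before it. The C3 window held the C/EBP match TTGCGAAA 45 bases before the start. The windows of C1ra, Cd55 and C3ar1 held none of the 3 motifs. Among 32851 promoter windows of the same length, 9.56% held the C/EBP motif, 7.02% the GAS motif and 2.98% the ISRE motif. A match is a run of letters, and binding was not measured.

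Levels are log2 RMA values, so that a difference of 1 is a 2-fold difference, and they ran from 3.30 to 13.27 over the table, with array medians of 6.21 to 6.34. Transcripts of the sorting markers followed the gates in part. Dpp4, which encodes CD26, averaged 10.61 in papillary cells, against 6.26 to 6.37 in the other populations. Dlk1 averaged 9.97 in papillary, 11.39 in Dlk1- Sca1+, 12.86 in Dlk1+ Sca1+ and 12.97 in reticular cells, so that both Dlk1- gates held Dlk1 transcript and Dlk1- Sca1+ cells more than papillary cells (papillary minus Dlk1- Sca1+ adjusted p = 2.06e-07, limma). The gene of Sca1 was not analysed here. Ptprc, which encodes CD45, stayed between 3.81 and 4.03 on every array. Dlk1- Sca1+ cells of animal 1 stood apart in a list of 5 keratinocyte markers, with a list mean of 9.69, against 7.36 and 7.48 in the other animals. Its Epcam was 8.62 despite the EpCam- gate, its mean of 5 mast cell markers was 6.21 (5.06 and 5.02 in the others) and its Dct, a melanocyte gene, was 8.98. To a lesser degree, the keratinocyte list mean was higher in animal 1 in papillary cells (7.86, against 6.59 and 6.53). The same held in reticular cells (7.85, against 6.70 and 6.87), and it was 7.89 in Dlk1+ Sca1+ cells of animal 2. Dlk1+ Sca1+ cells of animal 2 had the highest mean of 6 endothelial markers, 6.84, and Pecam1, which encodes CD31, was 8.74 there. Pecam1 was called lower in papillary cells than in each other population. In bulk RNA of this kind, fewer cells expressing a gene and less RNA per cell cannot be told apart.

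Differences between populations were tested with limma in 1 model of all 12 arrays, with Benjamini-Hochberg adjustment over all 17097 genes. The threshold for a call was an adjusted p of 0.05. The classical pathway genes C1s1 and C4b and the C1 inhibitor gene Serping1 were lowest by mean in papillary cells and highest in Dlk1+ Sca1+ cells. Cd55 followed another order, with the highest level in Dlk1- Sca1+ cells and the lowest in reticular cells. Cfb and C3ar1 were dim, in that their means over the 12 arrays lay below the median of all gene means. They differed by less than 1 log2 unit in every comparison.

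Mural and skeletal muscle markers were also lowest by list mean in papillary cells. The mean of 4 measured mural markers was 6.36 to 6.53 on papillary, 6.88 to 7.34 on Dlk1- Sca1+, 7.36 to 8.11 on Dlk1+ Sca1+ and 7.78 to 8.70 on reticular arrays. Of these, Pdgfrb and Kcnj8 were called lower in papillary cells than in each other population, and Kcnj8 averaged 4.73, 5.54, 7.95 and 8.10 in that order. Mcam averaged 6.57, 6.59, 6.29 and 7.01 in the same order, so that papillary cells were not lowest. Rgs5 was at 9.52 in reticular cells and 8.98 in Dlk1+ Sca1+ cells of animal 2. The mean of 4 skeletal muscle markers was 5.84 to 5.90 on papillary, 6.02 to 6.14 on Dlk1- Sca1+, 6.60 to 6.74 on Dlk1+ Sca1+ and 7.18 to 7.59 on reticular arrays, with Acta1, Ckm and Tnnc2 called lower in papillary than in reticular cells. Myh3 averaged 5.88 to 5.93 over the populations and was called in no pair. Ckm averaged 6.43 in papillary, 6.41 in Dlk1- Sca1+, 6.43 in Dlk1+ Sca1+ and 6.87 in reticular cells. The papillary minus reticular median was -1.63 over the mural and -1.57 over the muscle markers. Both lists were highest in reticular cells. The mean of 6 endothelial markers was 5.65 to 5.79 on papillary and 5.81 to 6.32 on Dlk1- Sca1+ arrays. It was 5.975 to 6.84 on Dlk1+ Sca1+ and 6.17 to 6.40 on reticular arrays. The part of the mural, muscle and endothelial lists in the complement values was not tested.

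In papillary minus reticular cells, 5 of the 6 genes were called, where 27.5% of all genes were. C1s1, C4b, Serping1 and Cfb were lower in papillary cells, 4 of 6 with 13.6% of all genes lower, and Cd55 was higher, 1 of 6 with 13.9% of all genes higher. Papillary cells differed from Dlk1+ Sca1+ cells in the same 5 genes and directions, with 28% of all genes called, 14.1% higher and 13.9% lower. Against Dlk1- Sca1+ cells, C1s1, Serping1, C3ar1 and Cd55 were called lower in papillary cells, 4 of 6, and 0 were higher by limma, also at an unadjusted p under 0.05, with a background of 26.4%, 13.1% higher and 13.3% lower. These comparisons share the papillary arrays, and the shares of all genes are at the adjusted threshold.

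Among the CD26- populations, C1s1, C4b, Serping1 and Cd55 were called higher in Dlk1+ Sca1+ than in reticular cells, 4 of 6 against 8.43% of all genes, 4.06% higher and 4.37% lower. In Dlk1- Sca1+ minus reticular cells, 3 of 6 were called, against 18.2% of all genes, 9.36% higher and 8.8% lower. Cd55 was higher and C4b and Serping1 were lower in Dlk1- Sca1+ cells. In Dlk1- Sca1+ minus Dlk1+ Sca1+ cells, 4 of 6 were called, against 7.36% of all genes, 3.23% higher and 4.13% lower. Again Cd55 was higher, and C1s1, C4b and Serping1 were lower in Dlk1- Sca1+ cells. The moderated F-test over the 4 populations called all 6 measured genes, with 35.7% of all genes called.

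**Figure D1:**
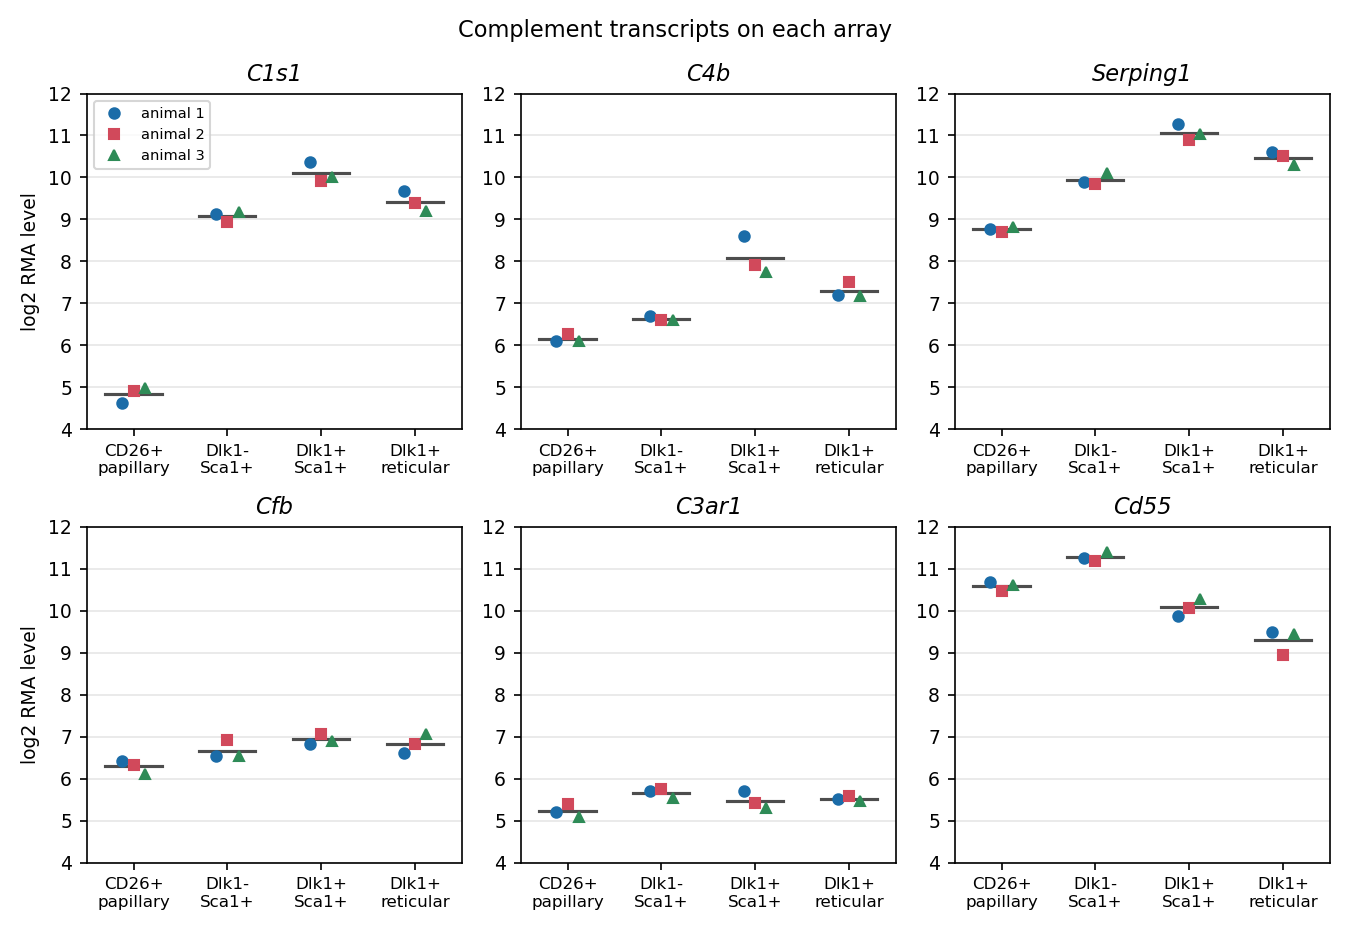
Log2 RMA level of 6 complement genes on each array, with 1 point per animal and a bar for the population mean (n = 3 animals). C1s1 sits between 4.63 and 4.98 in papillary cells and above 8.9 in each other population, and Cd55 is highest in Dlk1- Sca1+ and lowest in reticular cells.

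C1s1 encodes C1s, the protease of the classical pathway that cuts C4 and C2. Its level was 4.63, 4.92 and 4.98 in papillary cells of animals 1, 2 and 3. It was 9.12, 8.93 and 9.17 in Dlk1- Sca1+ cells, 10.37, 9.91 and 10.02 in Dlk1+ Sca1+ cells, and 9.67, 9.40 and 9.21 in reticular cells. The papillary arrays were far below all others, and the 3 Dlk1+ Sca1+ arrays were above all others. The papillary level lay near the lower quartile of each array, which was 4.93 to 5.07, and array signals this dim tend to understate folds.

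Papillary cells had less C1s1 signal than reticular cells, with a log2 difference of -4.58 ± 0.14 (SE, n = 3 arrays each, limma adjusted p = 2.16e-10). The difference was -5.26 (adjusted p = 4.35e-11) against Dlk1+ Sca1+ cells and -4.23 (adjusted p = 2.90e-10) against Dlk1- Sca1+ cells. With the papillary signal this near the bottom of the arrays, the sizes are differences of signal and give no exact ratio of transcripts. Each of the 3 animals showed each of these directions. Among CD26- cells the differences were smaller. C1s1 was higher in Dlk1+ Sca1+ than in reticular cells by 0.67 (limma adjusted p = 0.0107) and lower in Dlk1- Sca1+ than in Dlk1+ Sca1+ cells by 1.03 (difference -1.03, adjusted p = 0.000614). Dlk1- Sca1+ minus reticular was -0.35 (95% interval -0.67 to -0.04, adjusted p = 0.122), and that call was not made although the arrays did not overlap. The C1s1 probe set can share probes with other transcripts, as its suffix says, and the near-identical gene C1s2 is not separated from it here.

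The C1r genes on either side of C1s1 followed the same split. C1r is the protease that activates C1s. C1ra was at 5.32, 4.75 and 4.90 in papillary cells, 7.84, 7.51 and 7.92 in Dlk1- Sca1+ cells, 9.03, 8.31 and 8.75 in Dlk1+ Sca1+ cells and 7.62, 7.42 and 7.18 in reticular cells. C1rb was at 7.55, 7.17 and 7.54 in papillary cells and between 10.29 and 10.92 on the 9 other arrays. In both genes the papillary arrays lay below all others, and those of C1ra were also near the lower quartile of the arrays. Papillary minus reticular was -2.42 ± 0.19 for C1ra (SE, n = 3 each, limma adjusted p = 8.25e-07) and -2.97 ± 0.10 for C1rb (adjusted p = 3.51e-10). C1ra was higher in Dlk1+ Sca1+ than in reticular cells by 1.29 (adjusted p = 0.000941), and C1rb by 0.50 (adjusted p = 0.00675). C1ra and C1rb are near-identical and may share signal, so they are not independent of each other here.

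C4b encodes complement C4, the first substrate of C1s. Its level was 6.10, 6.27 and 6.11 in papillary cells and 6.69, 6.61 and 6.61 in Dlk1- Sca1+ cells. It was 8.60, 7.92 and 7.75 in Dlk1+ Sca1+ cells and 7.19, 7.52 and 7.18 in reticular cells. The 4 populations did not overlap, and Dlk1+ Sca1+ cells of animal 1 had the highest value. Papillary cells were lower than reticular cells by 1.14 (difference -1.14 ± 0.17 SE, n = 3 each, limma adjusted p = 0.000251) and lower than Dlk1+ Sca1+ cells by 1.93 (difference -1.93, 3.81-fold, adjusted p = 1.99e-06). Papillary minus Dlk1- Sca1+ was -0.48 (95% interval -0.85 to -0.10), which missed the threshold (adjusted p = 0.0621). It was called with the dim genes left out (adjusted p = 0.0401), with only those 6 arrays in the fit (adjusted p = 0.00249), without animal 1 and without Dlk1+ Sca1+ cells of animal 1 or of animal 3. The probe set is not known to separate C4b from its near-identical copy C4a.

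Among the CD26- populations, C4b was higher in Dlk1+ Sca1+ than in reticular cells by 0.79 (limma adjusted p = 0.0123). It was lower in Dlk1- Sca1+ than in Dlk1+ Sca1+ cells (difference -1.45, adjusted p = 0.000192) and than in reticular cells (difference -0.66, adjusted p = 0.018). The call against reticular cells was lost without animal 2 (adjusted p = 0.212), without animal 3 (adjusted p = 0.086), without Dlk1- Sca1+ cells of animal 3 and without reticular cells of animal 2. C2, the other substrate of C1s, had a like order, with means of 5.67 ± 0.25 in papillary, 6.90 ± 0.24 in Dlk1- Sca1+, 8.79 ± 0.47 in Dlk1+ Sca1+ and 8.04 ± 0.41 in reticular cells (SD, n = 3 each). C2 was lower in papillary cells than in reticular cells by 2.37 (difference -2.37, adjusted p = 7.38e-06). The papillary means of C4b and C2, 6.16 and 5.67, lay below the array medians of 6.21 to 6.34. Dlk1+ Sca1+ minus reticular was 0.75 for C2 and was not called (adjusted p = 0.0811).

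Serping1 encodes C1 inhibitor, the serpin that inactivates C1r and C1s. Its level was 8.76, 8.70 and 8.83 in papillary cells, 9.89, 9.84 and 10.11 in Dlk1- Sca1+ cells, 11.27, 10.90 and 11.04 in Dlk1+ Sca1+ cells and 10.61, 10.50 and 10.29 in reticular cells. The 4 populations formed separate bands and none overlapped. All 6 differences between populations were called. Papillary cells were lower than reticular cells (-1.70 ± 0.11 SE, n = 3 each, 3.26-fold, limma adjusted p = 1.48e-07), Dlk1+ Sca1+ cells (-2.31, adjusted p = 6.33e-09) and Dlk1- Sca1+ cells (-1.18, adjusted p = 3.31e-06). Dlk1+ Sca1+ cells exceeded reticular cells by 0.60 (adjusted p = 0.00447). Dlk1- Sca1+ cells were lower than reticular cells (-0.52, adjusted p = 0.00557) and lower than Dlk1+ Sca1+ cells (-1.12, adjusted p = 5.27e-05). The first of these was not called without animal 1 (adjusted p = 0.0569) or without animal 2 (adjusted p = 0.0913). The protease gene C1s1 and the gene of its inhibitor were thus both called lower in papillary than in every other population, as 7.29% of all genes were.

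C1s1, C4b and Serping1 were each called higher in Dlk1+ Sca1+ cells than in each of the other 3 populations, which held for 0.579% of all genes. The step against reticular cells was the least firm of these comparisons. With all 4 arrays of animal 3 left out, the adjusted p of Dlk1+ Sca1+ minus reticular was 0.16 for C1s1, 0.0716 for C4b, 0.0872 for Serping1 and 0.0716 for Cd55, and none was called. The differences were then 0.60 for C1s1, 0.91 for C4b, 0.53 for Serping1 and 0.77 for Cd55. With animal 2 left out, only Serping1 was called. Without animal 1, C4b was not (difference 0.49, adjusted p = 0.0688), and without reticular cells of animal 3 alone, C1s1 (adjusted p = 0.0514) and C4b (adjusted p = 0.0539) were not. The 3 genes were higher in Dlk1+ Sca1+ cells in each of the 3 animals.

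**Figure D2:**
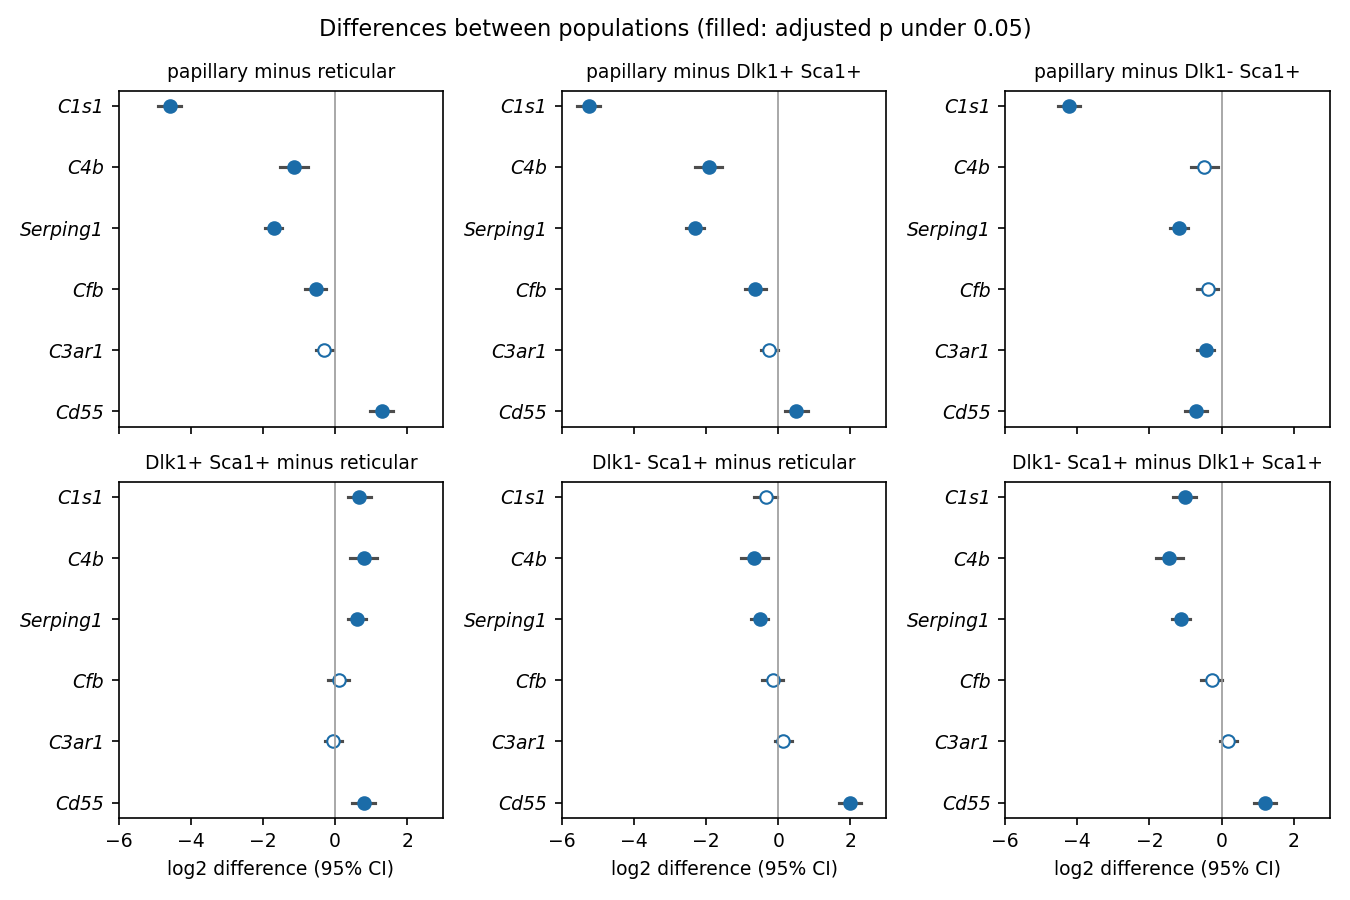
Log2 difference with its 95% interval (limma, 12 arrays, n = 3 per population) for 6 complement genes in the 6 pairs of populations, filled where the adjusted p is under 0.05. The C1s1 points lie at -4.58, -5.26 and -4.23 in the comparisons of papillary cells, and Cd55 is right of 0 in every panel except papillary minus Dlk1- Sca1+.

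Cd55 encodes decay-accelerating factor, the membrane regulator that breaks up convertases. Its level was 10.68, 10.47 and 10.61 in papillary cells, 11.25, 11.20 and 11.41 in Dlk1- Sca1+ cells, 9.89, 10.08 and 10.29 in Dlk1+ Sca1+ cells and 9.50, 8.94 and 9.45 in reticular cells. The populations did not overlap, and the Dlk1- Sca1+ arrays were highest. Dlk1- Sca1+ cells had 3.97-fold more Cd55 signal than reticular cells (1.99 ± 0.14 SE, n = 3 each, limma adjusted p = 9.25e-07), a difference that ranked 32 among the 8206 genes higher in Dlk1- Sca1+ cells. They also exceeded Dlk1+ Sca1+ cells by 1.20 (adjusted p = 0.000189). Being called highest in Dlk1- Sca1+ cells against each other population was found for 1.54% of all genes, and lowest in reticular cells for 1.06%.

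Papillary cells had more Cd55 than reticular cells (1.29, limma adjusted p = 1.59e-05) and less than Dlk1- Sca1+ cells (-0.70, adjusted p = 0.00235). Dlk1+ Sca1+ cells exceeded reticular cells by 0.79 (adjusted p = 0.00369). Papillary minus Dlk1+ Sca1+ was 0.50 (limma adjusted p = 0.0181). Its adjusted p was 0.185 without animal 1, 0.0537 without animal 3 and 0.0804 without Dlk1+ Sca1+ cells of animal 1 alone. Without the 2 arrays with the highest keratinocyte or endothelial list mean, the adjusted p was 0.0536. This difference was also not called without papillary cells of animal 1 or of animal 3. The other 2 Cd55 probe sets gave the same order of means. One of them was at 8.30, 8.45, 7.36 and 6.42 in papillary, Dlk1- Sca1+, Dlk1+ Sca1+ and reticular cells, and the other at 10.55, 10.96, 10.13 and 9.44. In the dimmer of them papillary minus Dlk1- Sca1+ was -0.15 and was not called (adjusted p = 0.521).

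Cd55b, a paralog of Cd55 beside it in the genome, had means of 7.21 ± 0.14 in papillary, 8.19 ± 0.15 in Dlk1- Sca1+, 6.89 ± 0.02 in Dlk1+ Sca1+ and 6.04 ± 0.32 in reticular cells (SD, n = 3 each). That is the same order as Cd55. The largest of its differences was Dlk1- Sca1+ minus reticular, 2.15 (limma adjusted p = 3.47e-07), and papillary minus Dlk1+ Sca1+ was 0.32 (adjusted p = 0.111). The paralogs are alike in sequence, and signal shared between their probe sets was not tested.

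Cfb encodes factor B, the protease of the alternative pathway. Its level was 6.43, 6.34 and 6.12 in papillary cells, 6.55, 6.92 and 6.55 in Dlk1- Sca1+ cells, 6.84, 7.07 and 6.91 in Dlk1+ Sca1+ cells and 6.61, 6.83 and 7.06 in reticular cells. The papillary arrays were below all others, and the other 3 populations overlapped each other. Papillary cells were lower than reticular cells (-0.54 ± 0.13 SE, n = 3 each, limma adjusted p = 0.00838) and Dlk1+ Sca1+ cells (-0.64, 1.56-fold, adjusted p = 0.00244). Against Dlk1- Sca1+ cells the difference was -0.38 (adjusted p = 0.0556), and it was called with the animal in the model (adjusted p = 0.0414), without animal 1 and without reticular cells of animal 1 or of animal 3. Without animal 3, papillary minus reticular was -0.34 (adjusted p = 0.191). Among CD26- populations, no Cfb difference was called. Dlk1+ Sca1+ minus reticular was 0.11 (95% interval -0.18 to 0.40).

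C3ar1 encodes the receptor of the C3 fragment C3a, known best from myeloid cells. Its level was 5.20, 5.40 and 5.10 in papillary cells, 5.71, 5.75 and 5.54 in Dlk1- Sca1+ cells, 5.70, 5.43 and 5.31 in Dlk1+ Sca1+ cells and 5.52, 5.58 and 5.48 in reticular cells. All 12 values lay close to the dim end of the arrays, and papillary cells overlapped only with Dlk1+ Sca1+ cells. Papillary minus Dlk1- Sca1+ was -0.43 ± 0.11 (SE, n = 3 each, limma adjusted p = 0.00886). It was the only C3ar1 pair called, and lost its call without animal 1 (adjusted p = 0.0545). With the animal in the model, papillary minus reticular (-0.29, adjusted p = 0.0213, against 0.0635 without it) and papillary minus Dlk1+ Sca1+ (-0.25, adjusted p = 0.0461, against 0.121 without it) were called too, as they were with the mean of its probe sets. The first was also called without papillary cells of animal 2 or Dlk1+ Sca1+ cells of animal 1 and with only its 6 arrays in the fit.

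The 3 probe sets of C3ar1 disagreed. The second, with means of 4.51 in papillary, 4.92 in Dlk1- Sca1+, 5.06 in Dlk1+ Sca1+ and 5.13 in reticular cells, was called lower in papillary cells than in each other population. The third varied between 4.58 and 4.66 and was called in no pair. The mean of 10 macrophage markers was 5.29 to 5.52 on papillary arrays, 5.50 to 5.60 on Dlk1- Sca1+ arrays, 5.55 to 5.67 on Dlk1+ Sca1+ arrays and 5.43 to 5.62 on reticular arrays. Of these markers, Cd68 was called lower in papillary cells than in each other population, and Cx3cr1 and Mrc1 lower than in Dlk1+ Sca1+ cells. The other 7 were called in no pair. Among them, Adgre1 was highest by mean in papillary cells, at 5.16 against 4.94 to 5.07 in the other populations. Ptprc, which encodes CD45, was between 3.81 and 4.03 throughout on its 1 probe set, near the lowest value of the table. A signal so dim does not show whether cells with CD45 were present. The part of these markers in the C3ar1 values was not tested.

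Beyond these genes, 51 further complement genes were listed by role, 43 were measured and 15 were called in at least 1 pair of populations, or 15 of 43 where 42.1% of all genes were. The share is near the background. In papillary minus reticular cells 3 of the 43 were higher and 9 lower, where 13.9% and 13.6% of all genes were. Of 15 measured genes of the classical and lectin start, 6 were called somewhere, namely C1ra, C1rb, C2, Masp1, Masp2 and Colec11. The 3 genes of C1q, C1qa, C1qb and C1qc, were not called in any pair and had means between 4.85 and 5.74. Of 6 measured genes of the terminal pathway, which builds the membrane pore, 0 were called by limma in any pair, and 0 had an unadjusted p under 0.05.

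Masp1, a protease of the lectin pathway, went against the C1 proteases. It was at 8.69, 8.60 and 8.51 in papillary cells and between 6.95 and 7.65 on the 9 other arrays. Papillary cells exceeded reticular cells by 1.18 ± 0.16 (SE, n = 3 each, limma adjusted p = 0.000112), Dlk1+ Sca1+ cells by 1.32 and Dlk1- Sca1+ cells by 1.30. Masp2, the lectin protease that cuts C4 and C2, was lower in papillary cells than in each other population, by 0.57 to 0.80 (differences -0.80 against reticular, -0.68 against Dlk1+ Sca1+ and -0.57 against Dlk1- Sca1+ cells). No pair among CD26- cells was called for either gene.

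Among soluble regulators, Clu, the gene of clusterin, an inhibitor of the terminal pathway, was lower in papillary cells than in reticular cells (-1.52, limma adjusted p = 0.00157), Dlk1+ Sca1+ cells (-2.27) and Dlk1- Sca1+ cells (-1.66). Clu was at 8.12 in Dlk1- Sca1+ cells of animal 1, the array with the highest keratinocyte list mean. It was at 6.80 and 6.90 in those of animals 2 and 3. Vtn, the gene of vitronectin, was highest in reticular cells, at 7.47, 7.60 and 7.30 against 6.01 to 6.53 on the 9 other arrays. Papillary minus reticular was -1.25 for Vtn (adjusted p = 2.56e-06) and Dlk1+ Sca1+ minus reticular was -0.97 (adjusted p = 0.000131). Cfp, the gene of properdin, which stabilises the alternative convertase, was lower in papillary than in reticular cells (-0.30, adjusted p = 0.0336) and Dlk1+ Sca1+ cells (-0.49, adjusted p = 0.00167). Of the membrane regulators, Cr1l, the gene of the rodent regulator Crry, was bright (9.43 in papillary, 10.01 in Dlk1- Sca1+, 10.00 in Dlk1+ Sca1+ and 9.70 in reticular cells) and was called in 5 of the 6 pairs, with differences of at most 0.57 in size.

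**Figure D3:**
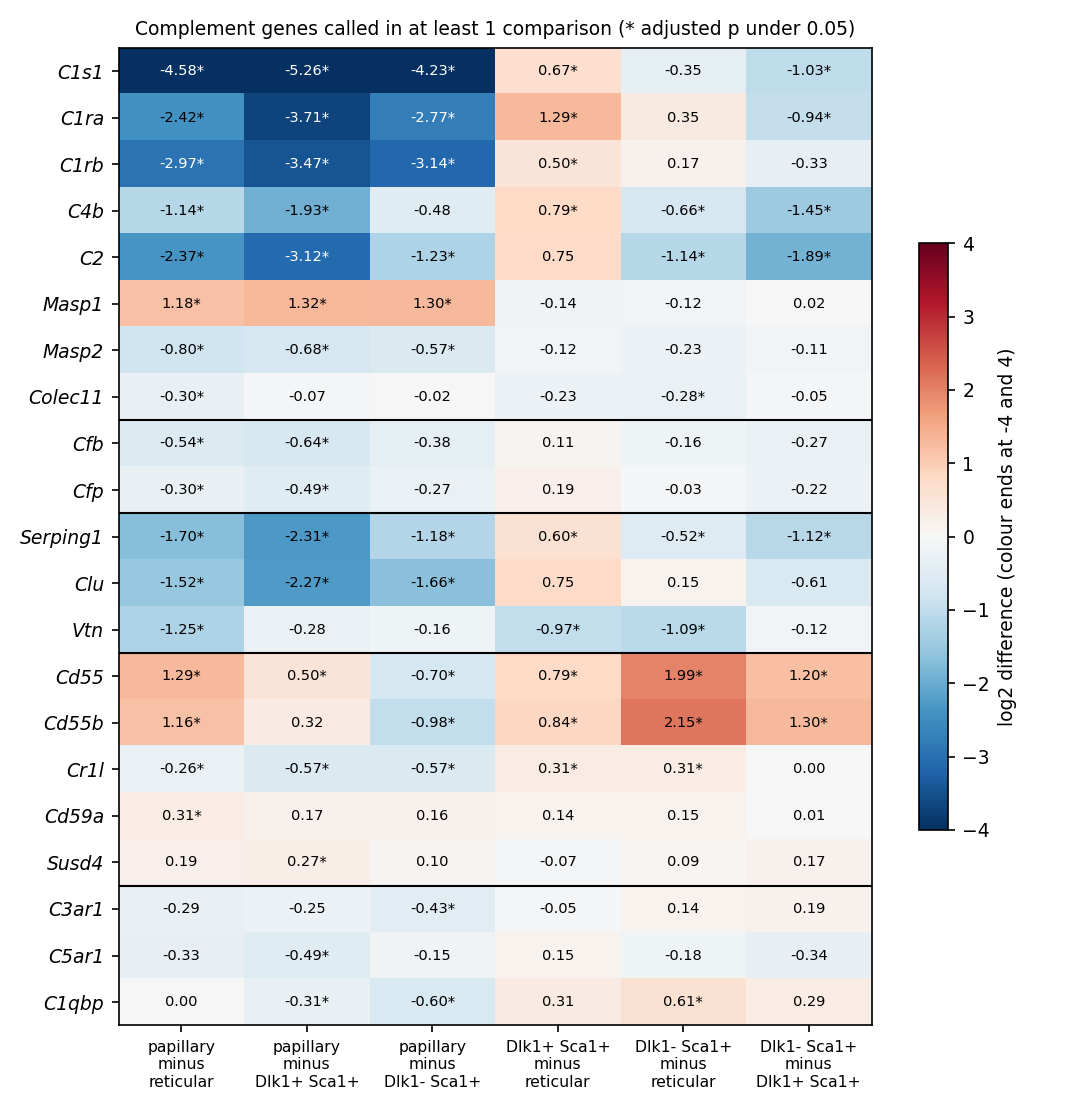
Log2 differences of the 21 complement genes called in at least 1 pair of populations (rows, grouped as start of the cascade, alternative pathway, soluble regulators, membrane regulators and receptors) in the 6 pairs (columns), with a star where the adjusted p is under 0.05. C1s1, C1ra and C1rb share deep negative values in the columns of papillary cells, where C2 runs from -3.12 to -1.23 and Masp1 is positive. Cd55 and Cd55b have like values throughout.

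Interleukin 6, interleukin 1, tumour necrosis factor and interferons are known to raise transcription of complement genes in many cell types, through STAT, NF-kappaB, IRF and C/EBP factors. A list of 21 genes of such cytokines, receptors and factors, with the feedback inhibitors Nfkbia (of NF-kappaB) and Socs3 (of cytokine signalling), was set beside the complement genes. Of 19 measured, 17 were called in at least 1 pair, where 42.1% of all genes were. In papillary minus reticular cells 0 were higher and 14 lower by limma (0 and 15 at an unadjusted p under 0.05), where 13.6% of all genes were lower and 13.9% higher. The median difference was -0.85, while that of all genes was -0.01. Against Dlk1+ Sca1+ cells, 16 were lower in papillary cells and 0 higher (17 and 0 at an unadjusted p under 0.05), where 13.9% of all genes were lower. Against Dlk1- Sca1+ cells, 16 were lower and 0 higher, also at an unadjusted p under 0.05, where 13.3% of all genes were lower. The shares of all genes are at the adjusted threshold, and none was computed at an unadjusted p. The 3 comparisons share the papillary arrays. The list was chosen with earlier results of these data known, so its counts are no independent test. It was also bright, with array means of 8.63 to 9.87, while the shares cover all genes, dim ones included.

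Il6, the gene of interleukin 6, was at 6.76, 6.36 and 7.43 in papillary cells, 8.50, 8.33 and 9.39 in Dlk1- Sca1+ cells, 9.51, 9.49 and 9.76 in Dlk1+ Sca1+ cells and 8.70, 8.82 and 8.88 in reticular cells. The papillary arrays were below all others, by 1.95 on average against reticular cells (difference -1.95 ± 0.27 SE, n = 3 each, limma adjusted p = 0.000107). Cebpd, a C/EBP factor of the acute phase, averaged 7.30 ± 0.15 in papillary, 8.84 ± 0.20 in Dlk1- Sca1+, 9.93 ± 0.11 in Dlk1+ Sca1+ and 9.65 ± 0.19 in reticular cells (SD, n = 3 each). This is the order of means of C1s1, C4b and Serping1. Of the other measured genes of the list, Il6, Tnfrsf1a, Ifnar1, Ifnar2 and Irf9 shared it, and the rest did not. Sharing it concerns means only. None of these genes, Cebpd included, was called in Dlk1+ Sca1+ minus reticular cells, and only Cebpd of them in Dlk1- Sca1+ minus reticular cells. Cebpa, also a C/EBP factor, averaged 8.76 in papillary, 10.65 in Dlk1- Sca1+, 10.34 in Dlk1+ Sca1+ and 9.70 in reticular cells. Cebpb averaged 7.95 in papillary cells and 9.82 to 9.93 in the others, with no call among the CD26- populations.

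The receptor genes differed among themselves. Il1r1, a receptor of interleukin 1, was lower in papillary than in reticular cells (-0.99, limma adjusted p = 1.48e-06) and higher in Dlk1+ Sca1+ than in reticular cells (1.00, adjusted p = 9.67e-06). Il6ra, the ligand-binding receptor of interleukin 6, divided the populations by Sca1. It was at 7.06, 6.66 and 6.87 in papillary cells, 9.33, 9.01 and 9.13 in Dlk1- Sca1+ cells, 9.17, 8.72 and 8.80 in Dlk1+ Sca1+ cells and 7.21, 7.46 and 7.11 in reticular cells. Both Sca1+ populations lay above both Sca1- populations with no overlap, and papillary minus reticular was -0.40 (adjusted p = 0.0553). Irf1 and Ifnar1 were called in no pair. Whether any of these genes acts on the complement genes was not tested.

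**Figure D4:**
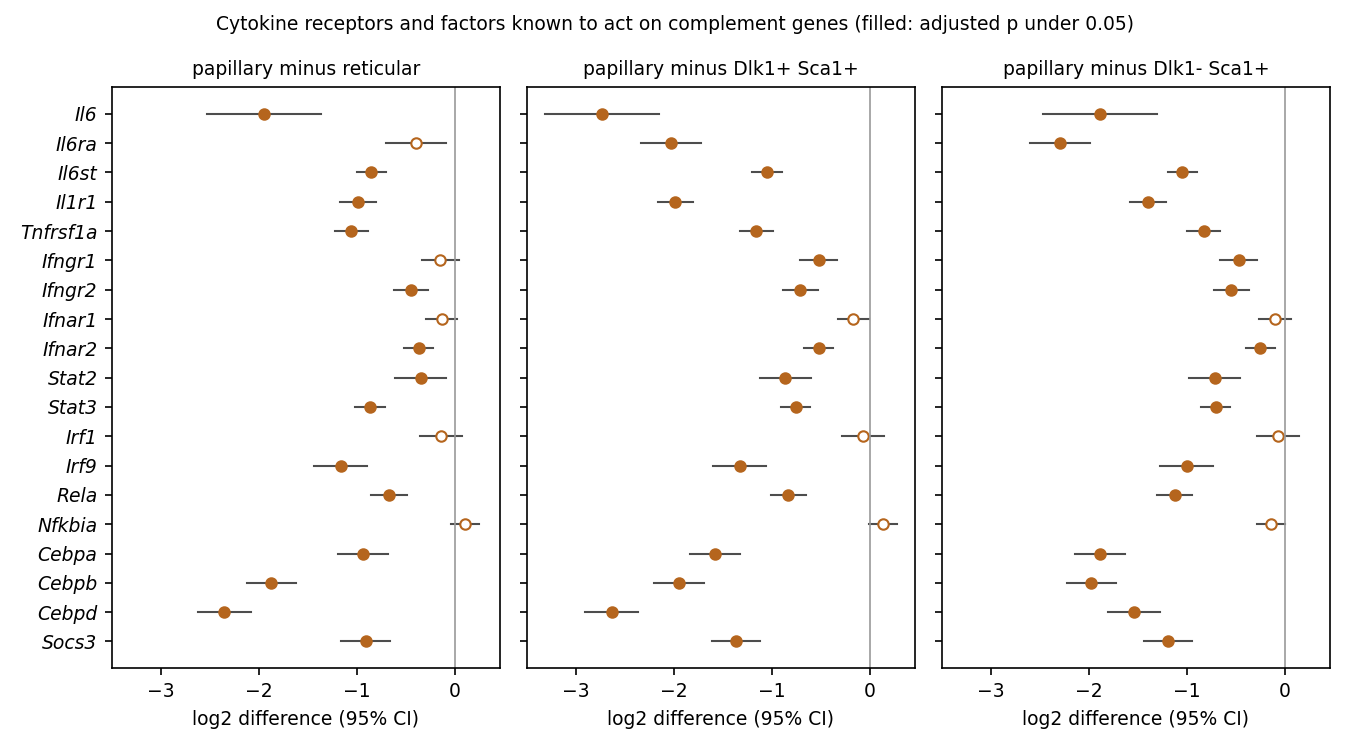
Log2 difference with its 95% interval (limma, 12 arrays) of 19 genes (cytokine, receptors, transcription factors and the inhibitors Nfkbia and Socs3) in papillary cells minus each other population, filled where the adjusted p is under 0.05. All filled points lie left of 0, the farthest being Il6 at -2.74 and Cebpd at -2.64 against Dlk1+ Sca1+ cells.

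For each complement gene, the genes with the most similar log2 values over the 12 arrays were taken by Pearson correlation. The arrays share 4 populations and 3 animals, so these values describe common population means. C1s1 was nearest to Nhsl1 (r = 0.997), 5031426D15Rik (r = 0.997) and Cygb (r = 0.995). Cygb, the gene of cytoglobin, averaged 5.91 in papillary, 9.42 in Dlk1- Sca1+, 10.19 in Dlk1+ Sca1+ and 9.85 in reticular cells. C4b was nearest to Aldh1a1 (r = 0.973), which encodes a retinaldehyde dehydrogenase and averaged 4.28, 4.92, 6.94 and 6.14 in the same order of populations. Serping1 was nearest to Ntrk2 (r = 0.989), Lrrc75a (r = 0.986) and Pcolce (r = 0.985). Cd55 was nearest to Reep5 (r = 0.979). For the dim genes the nearest were Cldn22 for Cfb and Appbp2 for C3ar1, each at r = 0.932.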

How the data were processed

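Transcript levels were measured on 12 Affymetrix arrays of 4 sorted populations from 3 littermates. The authors deposited log2 values, which the submitters' processing notes credit to RMA and affy. Their versions and a genome build are not given in the sources used here. The RMA method corrects background, equalises the arrays by quantiles and summarises each probe set, and compresses differences of dim probe sets. RNA was amplified over 21 cycles and 8 µg of cDNA labelled, per the labels' protocols, which can distort levels.

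Of 45141 probe sets, 104 controls were left out, 28898 carried 1 gene symbol in the platform annotation, 551 several and 15588 none. The probe set with the highest mean was taken per gene, giving 17097 genes with no filter on dim ones. No probe set had the symbol C3. Arrays were assigned from their labels and fitted in limma 3.58.1 (R 4.3.3) with 1 coefficient per population, 8 residual and 4.475 prior degrees of freedom, and 6 contrasts. The script was tested on simulated data. The number of arrays, 3 per population, limits the precision.

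The complement genes and the other lists were chosen with earlier results of these data known. Genes named were those listed, other complement or inducer genes called in at least 1 contrast, the 3 most correlated genes of each, and sorting and cell type markers. The uncalled C1q, Irf1 and Ifnar1 genes were named after their values were seen. Same-numbered arrays came from the same animal, per the labels, and their deviations from population means correlated at 0.09 to 0.43 (mean 0.27) in 18 pairs. Alternatives were the animal as a block, each animal or array left out, centred or requantiled arrays, averaged probe sets, a dim filter, a trended prior, 2-population fits, and 2 arrays with high markers of other cells left out. RefSeq gave the neighbours and promoters.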

Additional observations from a re-analysis of the deposited data

How the results depend on the processing

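Some settings were the animal as a block, centred or requantiled arrays, averaged probe sets and a trended prior. Others were a filter on dim genes, fits of only 2 populations and leaving out the 2 arrays with high markers of other cell types. In all of these, the 6 counts of genes called per pair of populations stayed within 1.5 times of their values. So did the counts of genes highest in 1 population. The count of the F-test did as well, but no F-test was made in the fits of only 2 populations. Leaving out animals or arrays moved 3 of these counts beyond that. Genes called in Dlk1+ Sca1+ minus reticular cells numbered 4 with all arrays and 0 to 4 otherwise: 0 without animal 3, 1 without animal 2 and 2 without reticular cells of animal 3. Genes called in Dlk1- Sca1+ minus reticular cells numbered 3, and 1 without animal 2. Genes highest in Dlk1+ Sca1+ cells numbered 3, and 0 without animal 3 or 1 without animal 2 or without reticular cells of animal 3. Leaving out an animal leaves 2 arrays per population, and less power is part of that. The sign turned only in uncalled differences: Dlk1+ Sca1+ minus reticular for C3ar1 (-0.16 to 0.0383, against -0.05) and for Cfb (-0.005 to 0.235, against 0.11), and Dlk1- Sca1+ minus reticular for Cfb (-0.285 to 0.015, against -0.16). The block for the animal, with paired arrays, kept the 4 calls of Dlk1+ Sca1+ minus reticular cells and added Cfb against Dlk1- Sca1+ cells and C3ar1 against reticular and Dlk1+ Sca1+ cells in the comparisons of papillary cells. It changed no other call. The filter on dim genes removed Cfb and C3ar1 and kept 8550 genes. Near the lower quartile of an array, as for C1s1 and C1ra in papillary cells, background limits what a fold shows.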

Other observations

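Deviations from the population mean differed between animals and genes. Over C1s1, C4b, Serping1, Cfb, C1ra, C1rb and C2, 7 genes chosen after their values were seen, animal 1 was the highest of the 3 Dlk1+ Sca1+ arrays in 6 genes, the exception being Cfb. In reticular cells animal 1 was the highest in 5 of the 7, while C4b was highest in animal 2 and Cfb in animal 3. In Dlk1- Sca1+ cells animal 3 was the highest in 5 of the 7, and in papillary cells the highest value fell to animals 1, 2 and 3 in 3, 2 and 2 genes. C4b of Dlk1+ Sca1+ cells was 0.51 above its population mean in animal 1, and 0.17 and 0.34 below it in animals 2 and 3 (deviations 0.51, -0.17 and -0.34). No test was made of these values.

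Of the genes next to the complement genes in the RefSeq order, C1ra, C1rb, C2 and Cd55b are described with their pathways, and these are the others that were measured. Nelfe, beside Cfb, averaged 7.19 in papillary, 7.09 in Dlk1- Sca1+, 7.14 in Dlk1+ Sca1+ and 7.05 in reticular cells and was called in no pair by limma. Foxj2, beside C3ar1, was lower in papillary cells than in reticular cells (-0.48, limma adjusted p = 0.00809), Dlk1+ Sca1+ cells (-0.50, adjusted p = 0.00606) and Dlk1- Sca1+ cells (-0.40, adjusted p = 0.0239), and Necap1, also beside C3ar1, was called in no pair. Ube2l6, near Serping1, had a papillary minus Dlk1+ Sca1+ difference of -0.67 (limma adjusted p = 0.0232), and its papillary minus Dlk1- Sca1+ difference was -0.07 (adjusted p = 0.875). Zp3r, near Cd55, lay between means of 4.25 and 4.32 and was called in no pair. Trip10, near C3, was lower in papillary than in reticular cells (-0.44, limma adjusted p = 0.0044). It was also lower than in Dlk1+ Sca1+ cells (-0.43, adjusted p = 0.0053) and Dlk1- Sca1+ cells (-0.49, adjusted p = 0.0023). Tnfsf14, beside C3, was called in no pair.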
